A study of Glycine max with 22 samples.

Results

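The aquaporin genes of soybean (Glycine max) were followed in mature leaves during bud removal and regrowth. The family was taken as every soybean probe set whose single gene symbol starts with PIP, TIP, NIP or SIP and a digit, which gave 32 of 37593 soybean probe sets, for 19 genes. A probe set is the group of short probes on the array that reports 1 transcript or a few related ones. PIP1 genes contributed 9 probe sets (6 genes), PIP2 genes 16 (8 genes), SIP genes 5 (3 genes) and NIP genes 2 (2 genes), and no single symbol began with TIP. In the table that pairs probe sets with genes, 8677 soybean probe sets had a single symbol, 370 had several and 28546 had no entry, so family members among the latter were not analysed here.

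RNA from 22 leaf samples was labelled and hybridised to Affymetrix soybean arrays, 1 sample per array. Plants grew in chambers with 16 h days. From a plant age of 30 days, all axillary and terminal buds of the treated plants were removed daily for 15 days (group D15, age 45 days, n = 3). Regrowth was then allowed, and R20 leaves came from its day 5 (age 50 days, n = 3) and R30 leaves from its day 15 (age 60 days, n = 3). Plants left intact gave C15, C20 and C30 at those ages (n = 3 each), and C0 was taken at the start, at an age of 30 days (n = 4). The labels name neither a cultivar nor the number of plants behind a sample, and p-values therefore refer to the spread among the samples measured, whose small number bounds the precision. In whole leaves, fewer cells of a type and less RNA per cell cannot be told apart.

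Aquaporins are membrane channels that let water, and in some members small solutes or gases, pass down a gradient. Plasma membrane intrinsic proteins (PIPs) sit mostly in the outer cell membrane: PIP2 proteins form efficient water channels, and PIP1 proteins of maize need a PIP2 partner to reach that membrane. Tonoplast intrinsic proteins (TIPs) lie in the vacuole membrane. Nodulin 26-like proteins (NIPs) are named after a protein of the membrane around soybean root nodule bacteria, and some carry glycerol, silicon or boron. Small basic intrinsic proteins (SIPs) were located to the endoplasmic reticulum in Arabidopsis. In leaves, aquaporins are known for their part in moving water from the veins to the mesophyll and in the expansion of cells.

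Signals were on the linear scale of the deposited table. A signal floor was set on each array at the 95th percentile of the oomycete and nematode probe sets that the array also carries, which gave floors of 11.8 to 22.1. A probe set was tested when it lay above the floor on at least 3 arrays, as did 32776 soybean probe sets and 31 of the 32 family members. The exception was a PIP2-1 probe set, above the floor only on C0 replicates 1 and 2, with signals of 35.5 and 21.4. Of the members, 19 lay above the floor on all 22 arrays, and 3, including that one, on fewer than 5 arrays. The median soybean signal was 57.1 to 81.3 on 21 arrays and 38.2 on R20 replicate 3, whose actin 3' over 5' signal ratio was 136 against 2.29 to 8.37 elsewhere; a high ratio marks degraded RNA. Arrays of C20 and R20 had a ratio of the hybridisation controls bioC and bioB of 2.36 to 2.59, and the remaining arrays 1.02 to 1.26, so comparisons of C20 with C0 cross that difference. The leaf markers found on the array, CAB3 and the light-harvesting gene LOC547819, lay above the floor on all 22 arrays. Of 8 seed markers found, the glycinin genes GY1, GY2, GY3 and GY5 and the trypsin inhibitor gene KTI3 were above it on 0 arrays, LOC100787186 on 5, CG-1 on 4 and SBP2 on 2, and no seed marker exceeded a signal of 44.5. Matched by name, 2 of the 12 leaf marker names were found, and 0 of the 14 root nodule marker names. The nodule gene N-26, which the array carries under that symbol, was not matched and lay above the floor on 8 arrays.

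**Figure D1:**
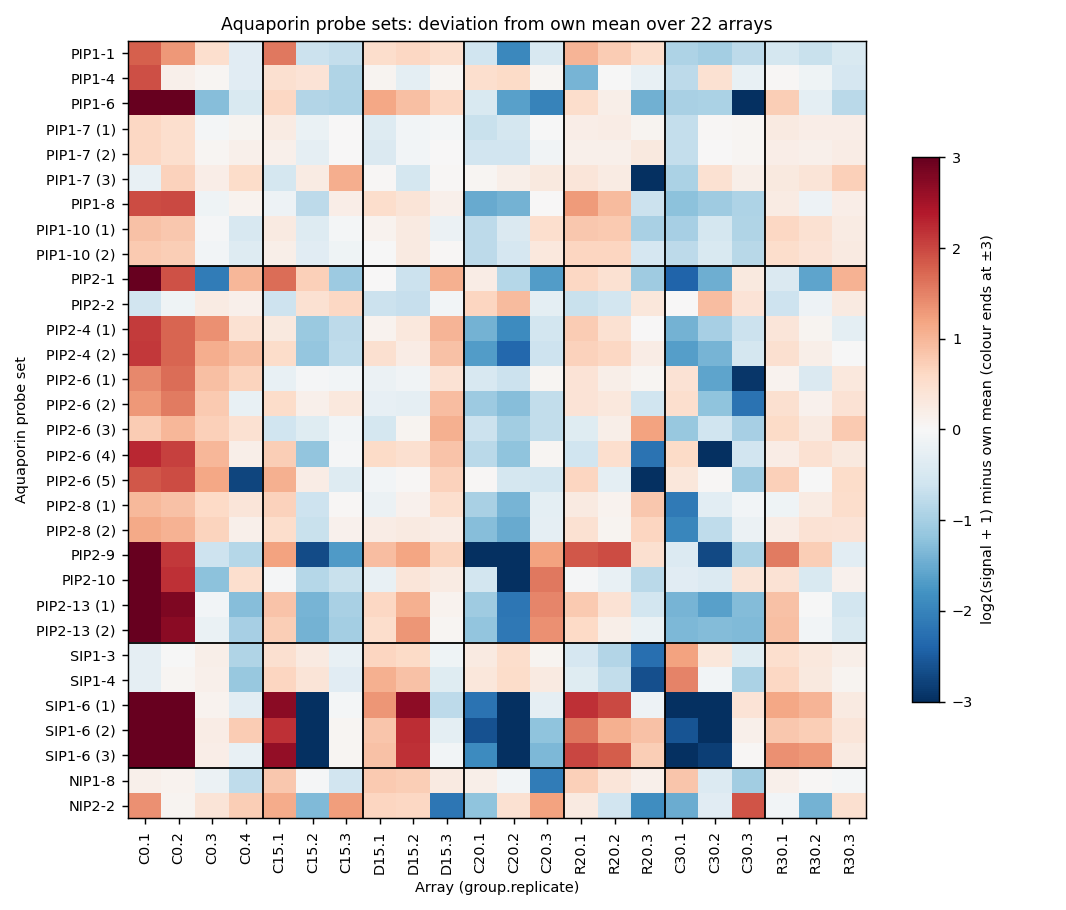
Deviation of each tested aquaporin probe set (rows, by subfamily, with a gene's probe sets numbered in order of their identifiers) from its own mean over the 22 arrays, on the log2(signal + 1) scale; columns are single arrays by group and replicate. Most PIP and SIP1-6 rows are red on C0 replicates 1 and 2 and blue on replicates 1 and 2 of C20 and C30. On C20 replicate 3, 11 of the 24 PIP rows lie above their own mean. On C30 replicate 3 most PIP rows are blue, but the SIP1-6 rows lie slightly above their own mean.

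The arrays of a group did not carry the PIP genes alike. The deviation of a probe set is its log2(signal + 1) value minus its own mean over all arrays, and its median over the 24 tested PIP probe sets was 1.83 and 1.62 on C0 replicates 1 and 2 but 0.13 on each of the other C0 arrays. Among untreated leaves of 45 days, C15 replicate 1 stood at 0.50 and the others at -0.51 and -0.11. On the C20 arrays the medians were -0.72, -1.25 and -0.06, and on the C30 arrays -0.95, -0.85 and -0.72. All bud-removed arrays but R20 replicate 3 (-0.21) lay above 0, at 0.06 to 0.49. On R20 replicate 3, the array with the high actin ratio, the median of all tested soybean probe sets was lower too, at -0.23.

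The same-age comparisons asked how leaves of bud-removed plants differed from those of untreated plants at each age, and all used limma on log2(signal + 1), with p-values adjusted by the Benjamini-Hochberg method over all 32776 probe sets and a call at an adjusted p under 0.05. Averaged over the 3 ages, 12 aquaporin probe sets of 8 genes were higher in bud-removed leaves and 1 was lower, where 11.1% of all tested probe sets were called higher and 11.3% lower. The genes called higher were PIP1-1, PIP1-8, PIP1-10, PIP2-4, PIP2-6, PIP2-8, PIP2-9 and SIP1-6, and PIP2-2 was called lower. In these comparisons a rise or fall is relative to same-age controls, and bud-removed leaves were not tested against C0. Mean signals of PIP2-4 set 1 were 3731 in C0, 1863 in D15, 1754 in R20 and 1364 in R30. Of the probe sets called higher, only PIP1-10 set 2 had mean linear signals above its C0 mean (4037 in R20 and 4182 in R30 against 3996). The C0 arrays lay far apart for several of these genes. The median log2 fold change over the 31 members was 0.73, and over all tested probe sets -0.13. The fitted difference was above 0 at all 3 ages for 19 members (61.3%) and for 22.9% of all tested probe sets; it was below 0 at all 3 ages for 3 members (9.68%) and for 29.0% of all. By subfamily, 6 of 15 PIP2 probe sets rose and 1 fell, 3 of 9 PIP1 probe sets rose, and neither NIP probe set was called. Of 5 SIP probe sets 3 rose, all of the gene SIP1-6, while SIP1-3 and SIP1-4 averaged -0.46 and -0.38 with no call. Without C15 replicate 2 or C20 replicate 2 the call count was 7 in place of 13.

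By age, the calls lay in the comparison at 5 days of regrowth. In R20 against C20, 7 members were called higher and 1 lower, where 6.64% of all probe sets were called higher and 11.2% lower. The split was 15 higher and 0 lower after median centring and 6 and 1 after quantile normalization. In a fit of the 2 groups alone it was 2 and 0. The shares of all probe sets called under those settings are not given here. The median over the members was 0.81 and over all tested probe sets -0.27, a shift of all genes that was -0.09 after quantile normalization and 0.20 after median centring. All 3 R20 arrays were above all 3 C20 arrays for 13 members, as for 15.5% of all tested probe sets, and below them for 3, as for 26.4%. In D15 against C15, limma called 0 members (0.226% of all probe sets were called in either direction), 1 member had an unadjusted p under 0.05 (11.9% of all), and the median was 0.30 against -0.04 for all; the arrays overlapped for all 31 members, where 8.63% of all probe sets lay wholly higher and 7.58% wholly lower. In R30 against C30, limma called 0 members (2.22% of all), 12 had an unadjusted p under 0.05 (14.4% of all), and the median was 1.09 against 0.05 for all; in 16 members all R30 arrays lay above all C30 arrays (13.1% of all) and in 0 below (9.02% of all). The changes of the difference from D15 to R20 and from D15 to R30 were tested as interactions, and limma called 0 members and 0% of all probe sets in either. At an unadjusted p under 0.05 stood 4 members (11.3% of all) in the former and 0 (2.24% of all) in the latter. A call at R20 alone therefore does not show a difference between the ages.

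Several array measures moved with these groups. The summed signal of the 2 leaf markers was 2587 to 7855 on the C20 arrays and 20892 to 22029 on the R20 arrays. It was 5980 to 14207 in C30 and 16052 to 19849 in R30, and 12138 to 27251 in C15 and 17655 to 24793 in D15, which overlap. The summed signal of the 8 seed markers was 19.3 to 38.4 in C20 and 48.9 to 102 in R20. It was 28.6 to 50.9 in C30 and 44.4 to 62.2 in R30, which overlap. In C15 it was 29.2 to 60.6 and in D15 48.8 to 82.7, which also overlap. Most of these seed signals lay under the floor, so their sums are made up largely of background. The signal floor was 11.8 to 13.0 in C20 and 14.4 to 21.8 in R20. The part of these in the aquaporin differences was not tested. The R20 count was 0 without C20 replicate 2, 1 without C20 replicate 1, 4 without R20 replicate 2 and 3 without R20 replicate 3, and the R30 count was 2 without C30 replicate 1 and 1 without R20 replicate 3. Leaving out C0 replicate 4, C15 replicate 1 and R20 replicate 3 together, arrays chosen after these data had been seen, gave 2 calls at D15, 8 at R20, 3 at R30 and 17 for the mean of the 3 ages. The share of all probe sets called in that fit is not given here, so whether more calls came over the whole array cannot be read from these counts.

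**Figure D2:**
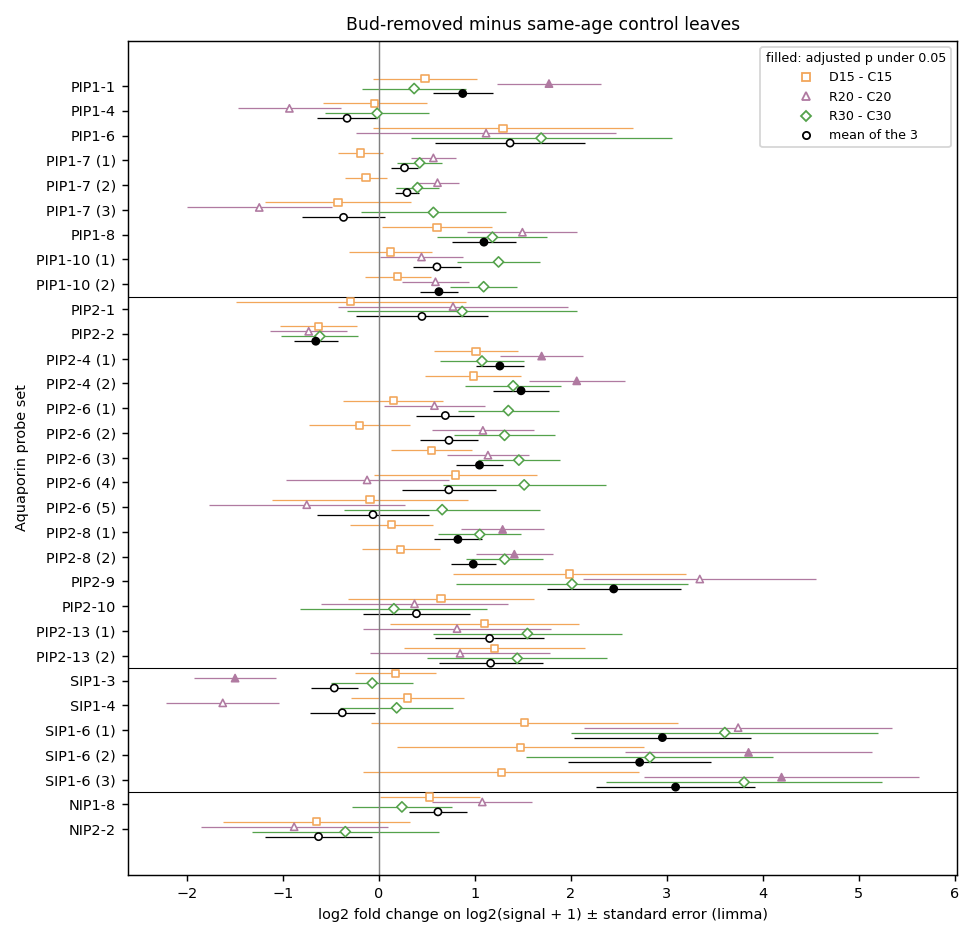
Log2 fold change of each tested aquaporin probe set between bud-removed and same-age control leaves (squares D15, triangles R20, diamonds R30, circles the mean of the 3 ages; bars are standard errors from limma; filled symbols have an adjusted p under 0.05). Most circles lie right of 0; those of the 3 SIP1-6 probe sets, between 2.72 and 3.09, rest in part on control arrays under the floor and were 1.54 to 2.002 with a pseudocount of 16.

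Among the PIP2 water channels, PIP2-4 had the smallest adjusted p-values of the family in the mean over ages. Where a gene has several probe sets they are numbered in the order of their identifiers. PIP2-4 set 1 gave signals of 1385, 1609 and 2595 in D15 against 1582, 593 and 749 in C15. It gave 2184, 1778 and 1300.2 in R20 against 482, 346 and 885 in C20, and 1666, 1374 and 1052 in R30 against 484, 647 and 821 in C30. At both regrowth ages every bud-removed array was above every control, and at D15 only C15 replicate 1 reached into the range of the treated arrays. The log2 fold change was 1.70 ± 0.43 at R20 (adjusted p = 0.0142, limma) and 1.26 ± 0.25 over the 3 ages (adjusted p = 0.00162). PIP2-4 set 2 read 56.8, 54.3 and 41.1 in R20 and 10.3, 6.04 and 22.2 in C20, where only C20 replicate 3 was above the floor. In R30 it read 48.8, 39.3 and 34.4 and in C30 10.5, 12.6 and 23.8, and in D15 49, 41.1 and 65.1 and in C15 51.8, 15.1 and 20.2. Both probe sets thus ran the same way, and set 2 rose by 2.06 ± 0.50 at R20 (adjusted p = 0.0114) and 1.48 ± 0.29 over the ages (adjusted p = 0.00144). The R20 calls of both sets ended without C20 replicate 2 and in a fit of the 2 groups alone, and that of set 1 also without C20 replicate 1.

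PIP2-8, another PIP2 channel gene, lay above the floor on every array with both of its probe sets. PIP2-8 set 2 read 1941, 1509 and 2220.2 in R20 and 584, 498 and 1183 in C20, which did not overlap. It read 1646, 1922 and 1875 in R30 and 366, 838 and 1261 in C30, again without overlap, while the D15 arrays (1664, 1704 and 1644) lay within the range of C15 (2059.9, 897 and 1564). The log2 fold change was 1.41 ± 0.40 at R20 (adjusted p = 0.0240) and 0.98 ± 0.23 over the ages (adjusted p = 0.00582). PIP2-8 set 1 read 4204, 3710.1 and 6106 in R20 and 1755, 1313 and 2824 in C20. In R30 its signals were 3188, 4096 and 5012 against 802, 2790.4 and 3277 in C30, and in D15 3079.6, 3791 and 4960.2 against 5579, 2241 and 3532 in C15. It rose by 1.29 ± 0.43 at R20 (adjusted p = 0.0462) and by 0.82 ± 0.25 over the ages (adjusted p = 0.0240). The R20 call ended under 11 of 15 alternatives for set 1, among them quantile normalization, and under 6 of 15 for set 2, in both cases also without R20 replicate 3. The call of set 1 over the ages ended under quantile normalization and without C15 replicate 2 or C20 replicate 2.

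PIP2-9 had the largest average rise among the PIPs, with control arrays that lay far apart. Its signals were 631, 757 and 525 in D15 and 763, 50.6 and 102 in C15. They were 1214, 1282 and 458 in R20 and 39.9, 20.8 and 766 in C20, and 968, 553 and 267 in R30 and 250.1, 50 and 169.8 in C30. C15 replicate 1 and C20 replicate 3 lay inside or above the range of treated arrays, and at R30 the groups did not overlap. No single age was called (adjusted p = 0.0605 at R20), and the mean over the ages was 2.45 ± 0.70 (adjusted p = 0.0174).

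PIP2-6 was covered by 5 probe sets, of which 1 was called over the ages. PIP2-6 set 3 read 56.4, 45.5 and 65.8 in R30 and 16.6, 24.4 and 18.2 in C30, and 28.8, 42.6 and 87.5 in R20 and 23.9, 17.8 and 22.1 in C20. Neither pair overlapped, while D15 (25.7, 39.5 and 80.3) and C15 (24.6, 28.9 and 35.6) did. This probe set rose by 1.05 ± 0.25 over the ages (adjusted p = 0.00526). PIP2-6 set 2 read 2069.8, 2025 and 4685 in D15 and 3607, 2725 and 3041 in C15. At the regrowth ages it read 3296, 3049 and 1636 in R20, 1152, 1007 and 1484 in C20, 3418, 2676 and 3315 in R30 and 3488, 1068 and 533 in C30. Its average difference of 0.73 ± 0.30 did not pass (adjusted p = 0.0898), with no overlap at R20 and C30 replicate 1 above every R30 array. For PIP2-6 set 1 the signals were 916, 960.5 and 1401 in D15, 893, 1020.4 and 990.3 in C15, 1386, 1177 and 1092 in R20 and 740.4, 664 and 1084 in C20. In R30 they were 1117, 775 and 1293 and in C30 1403, 349 and 137, and the average difference was 0.69 ± 0.30 (adjusted p = 0.104). The remaining PIP2-6 probe sets averaged 0.73 and -0.06 and were not called.

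PIP2-2 ran the other way. Its signals were 311, 303 and 458 in D15 and 317, 671 and 747 in C15, 304, 334 and 618 in R20 and 763, 950.0 and 397 in C20. In R30 they were 315, 440.0 and 588 and in C30 495, 920.3 and 644. At each age the groups overlapped, and the mean over the ages was -0.66 ± 0.23 (adjusted p = 0.0475), a call that ended under 16 of 26 alternatives, quantile normalization and median centring among them. The probe sets of PIP2-13 averaged 1.15 and 1.16 and did not pass (adjusted p = 0.149 and 0.127), with all R30 arrays, from 277 to 775, above all C30 arrays, from 131 to 169. PIP2-10 and the tested PIP2-1 probe set lay above the floor on 11 and 4 arrays, and averaged 0.39 and 0.45 with no call.

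**Figure D3:**
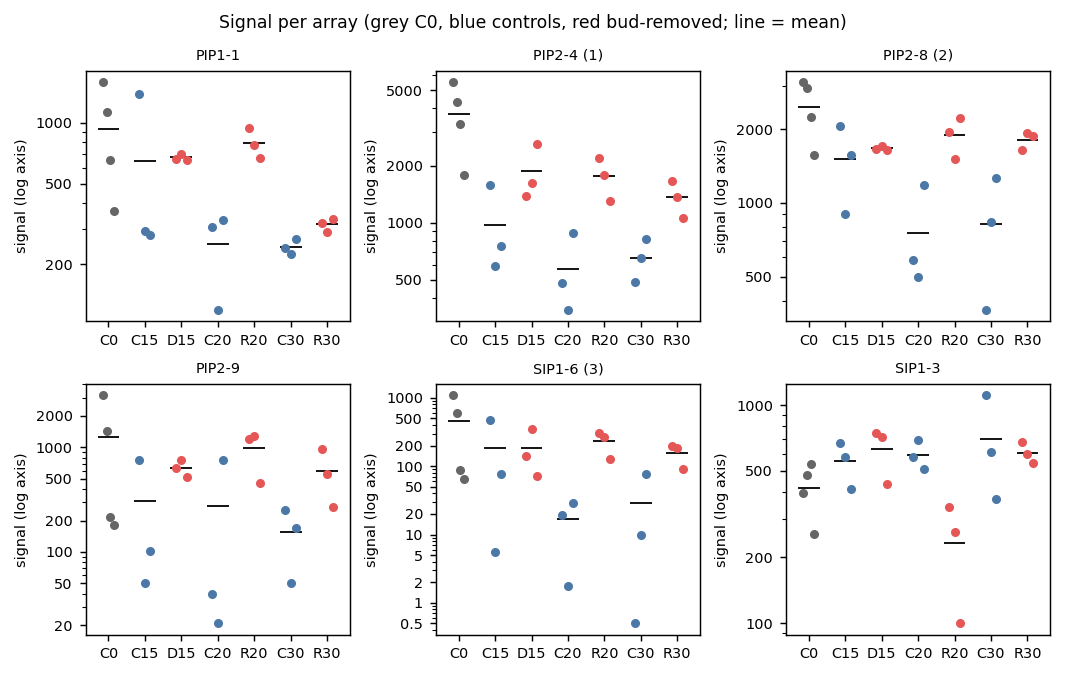
Signal on each array (points, log axis; the line is the mean of the linear signals) for 6 aquaporin probe sets, with a panel each, in the 7 groups. For PIP2-4 and PIP2-8 all R20 and R30 points lie above the same-age control points, and for SIP1-3 the R20 points, from 99.6 to 341, lie below the C20 points, from 508 to 689.

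Of the PIP1 genes, whose products in maize pair with PIP2 proteins, PIP1-1 was called at a single age. Its signals were 939, 776 and 666 in R20 and 305, 119 and 331 in C20, without overlap. They were 664, 704 and 656 in D15 and 1379, 293 and 278 in C15, where replicate 1 was the highest of the 6 arrays, and 321, 289.7 and 336 in R30 and 241, 226 and 266 in C30. The rise was 1.77 ± 0.54 at R20 (adjusted p = 0.0303) and 0.87 ± 0.31 over the ages (adjusted p = 0.0493). The R20 call ended without any 1 of the R20 arrays, without C20 replicate 1 or 2 and in a fit of the 2 groups alone. The call over the ages ended under 18 of 26 alternatives.

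PIP1-8 and PIP1-10 rose over the ages with no call at a single age. PIP1-8 read 139, 105 and 134 in R30 against 48.9, 54.9 and 60.5 in C30 and 284, 225 and 73.9 in R20 against 40.3, 42.7 and 118 in C20. In D15 it read 169, 153 and 129 and in C15 105, 66.7 and 133. Only R30 and C30 did not overlap, and the average rise was 1.10 ± 0.33 (adjusted p = 0.0233), a call that ended without C15 replicate 2, C20 replicate 1 or C20 replicate 2. PIP1-10 set 2 gave 4533, 4199.7 and 3813 in R30 against 1836, 2311 and 1764 in C30. It gave 4958, 4943 and 2211 in R20 and 1841, 2213 and 3897 in C20, 3127, 3784 and 3220.4 in D15 and 3569, 2474 and 2866 in C15. Its R20 replicate 3 lay near the lowest C20 arrays, and the average rise was 0.63 ± 0.20 (adjusted p = 0.0300), which did not pass under 11 of 26 alternatives, quantile normalization among them. PIP1-10 set 1 averaged 0.61 ± 0.25 (adjusted p = 0.0861).

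PIP1-7, PIP1-6 and PIP1-4 were not called in the same-age comparisons. PIP1-7 set 2 read 8735, 8769 and 9599 in R20 and 5287, 5299 and 7362 in C20, 9013, 8785 and 9141 in R30 and 4763, 7975 and 8253 in C30. It read 5873, 7429 and 7933 in D15 and 8754, 6573 and 7936 in C15. At both regrowth ages the treated arrays were above the controls, but the average difference was 0.29 ± 0.13 (adjusted p = 0.106). The scaling set its direction: under quantile normalization the difference was -0.20 at R20 and -0.08 over the ages, and under median centring it was 1.09 at R20 (adjusted p = 0.0236). The other PIP1-7 probe sets averaged 0.27 and -0.37, PIP1-6 averaged 1.37 ± 0.78 (adjusted p = 0.216) and PIP1-4 averaged -0.33 ± 0.31, also with no call. The signals of PIP1-6 ranged from 2.72 to 2723 over the 22 arrays, and it lay above the floor on 18. Identifiers ending in s_at or x_at, as 11 of the 32 members have, mark probes that can detect related transcripts, so the split between PIP1-7 and PIP1-10 and between other close relatives is uncertain.

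Among the SIPs, SIP1-6 had 3 probe sets that rose over the ages. SIP1-6 set 3 read 305, 267 and 127 in R20 and 19.5, 1.78 and 28.8 in C20. It read 197, 186 and 91.3 in R30 and 0.501, 9.7 and 76.9 in C30, and 139.6, 345 and 71.2 in D15 and 475, 5.6 and 77.9 in C15. The groups did not overlap at R20 or R30, and C15 replicate 1 was above every D15 array. The rise was 4.20 ± 1.44 at R20 (adjusted p = 0.0491) and 3.09 ± 0.83 over the ages (adjusted p = 0.0122).

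SIP1-6 set 2 read 147, 101 and 88.5 in R20, 6.97, 1.66 and 20.2 in C20, 84.3, 81.1 and 62.4 in R30 and 7.09, 1.84 and 53.4 in C30. In D15 it read 86.4, 228 and 38.8 and in C15 223, 2.22 and 50.1. It rose by 3.85 ± 1.29 at R20 (adjusted p = 0.0447) and by 2.72 ± 0.74 over the ages (adjusted p = 0.0135). For SIP1-6 set 1 the signals were 183, 159.8 and 35.5 in R20, 7.68, 0.55 and 32.4 in C20, 89.6, 80.7 and 48.2 in R30 and 0.51, 1.5 and 52.6 in C30. In D15 they were 101, 261 and 22.4 and in C15 262, 1.6 and 37.9, and the average rise was 2.96 ± 0.92 (adjusted p = 0.0275). Several control arrays lay under the floor, so the size of these folds depends on the pseudocount: with 16 in place of 1 the average was 1.54 for set 1, 1.56 for set 2 and 2.002 for set 3, and set 1 was then not called. The call of set 1 over the ages ended under 6 of 26 alternatives. The R20 calls ended under 10 of 15 alternatives for set 2 and under 9 of 15 for set 3, without R20 replicate 3 among them.

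SIP1-3 and SIP1-4 did not follow SIP1-6. SIP1-3 read 341, 261 and 99.6 in R20 and 578, 689 and 508 in C20, all R20 arrays below all C20 arrays. In R30 it read 678, 597 and 540.1 and in C30 1109.8, 611 and 372, and in D15 745, 711 and 437 and in C15 670.3, 579 and 414, with overlap at both ages. It fell by 1.50 ± 0.43 at R20 (adjusted p = 0.0231), and the call ended under 7 of 15 alternatives. Among them were median centring, the 2-group fit and leaving out C20 replicate 1 or C20 replicate 2. The call also ended without R20 replicate 3, its lowest array, where the difference was -0.97. Its average difference was -0.46 ± 0.25 (adjusted p = 0.180). For SIP1-4 the R20 difference was -1.63 ± 0.59 (adjusted p = 0.0609), also without overlap, and -0.93 without R20 replicate 3 (adjusted p = 0.298).

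Neither NIP gene was called in any comparison. NIP1-8 read 374, 360.5 and 260.1 in D15 and 378, 211 and 145 in C15, 354, 279 and 239.7 in R20 and 244, 204 and 49.7 in C20. In R30 it read 240.2, 222 and 207 and in C30 389, 163 and 104, and the groups overlapped at every age. Its average difference was 0.62 ± 0.30 (adjusted p = 0.145). NIP2-2 lay above the floor on 4 of the 22 arrays, with signals of 1.18 to 35.2, and averaged -0.63 ± 0.56 (adjusted p = 0.441).

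The ageing of untreated leaves was followed from C0 to C15, C20 and C30, which the same-age comparisons also use as controls, so neither kind of comparison is independent of the other. In C20 against C0, 10 members of 7 genes fell and 0 rose, where 4.28% of all tested probe sets were called lower and 1.98% higher. In C30 against C0, 8 members of 4 genes fell and 0 rose, where 3.15% of all were called lower and 1.2% higher. In C15 against C0, limma called 0 members and 0% of all probe sets, with 7 members at an unadjusted p under 0.05 (9.53% of all). The median over the 31 members was -0.75 at C15, -1.76 at C20 and -1.71 at C30, and over all tested probe sets 0.05, 0.19 and 0.05. The C20 count was 2 without C0 replicate 1, C0 replicate 2, C20 replicate 1 or C20 replicate 2. The C30 count was 3 without C0 replicate 1 or 2, 5 without C30 replicate 1 and 18 without C0 replicate 4. Without C0 replicate 1 or 2, the calls left were those of both PIP2-4 probe sets at C20, and those and PIP2-6 set 1 at C30. Without C0 replicate 4, C15 replicate 1 and R20 replicate 3 together, 6 members were called at C15, 21 at C20 and 19 at C30, again with no share over all probe sets to set beside them.

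**Figure D4:**
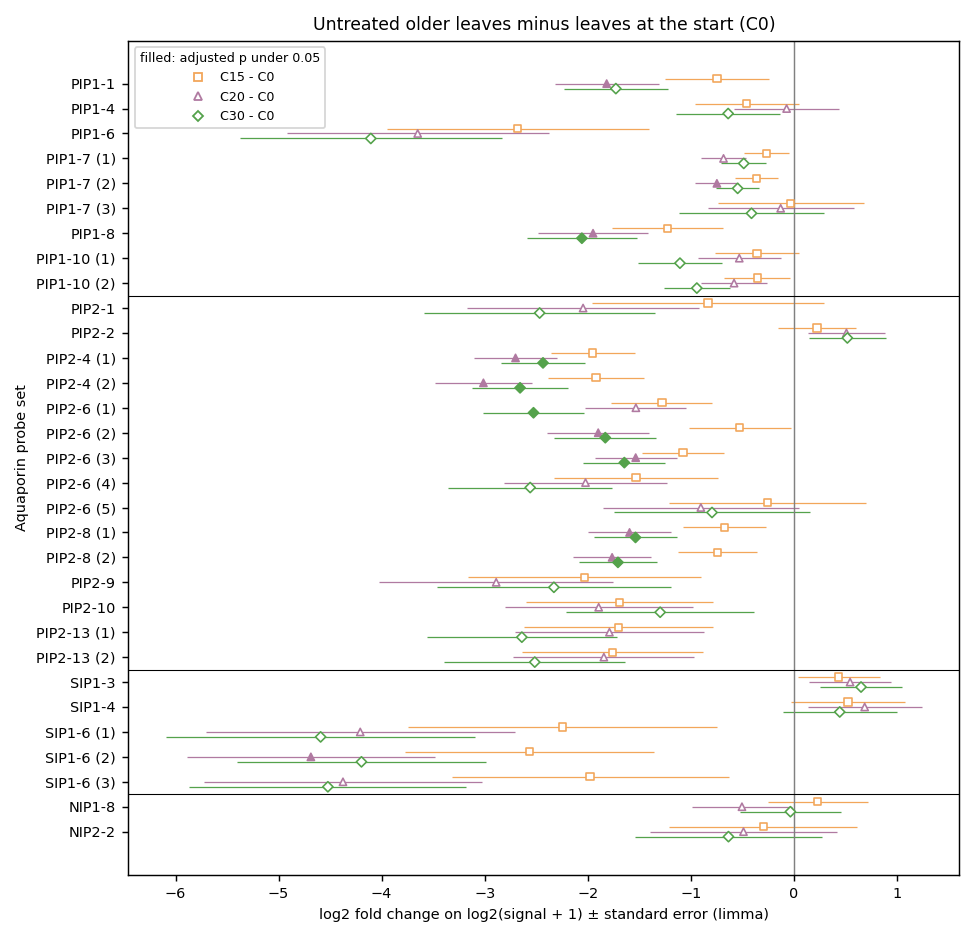
Log2 fold change of each tested aquaporin probe set in untreated leaves against the start C0 (squares C15, triangles C20, diamonds C30; bars are standard errors from limma; filled symbols have an adjusted p under 0.05). Filled symbols occur only left of 0, at C20 and C30, and the PIP2-4 probe sets reach -2.70 and -3.01 at C20.

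PIP2-4, PIP2-6 and PIP2-8 fell at both later ages. The C0 signals of PIP2-4 set 1 were 5516, 4305, 3324 and 1781, above every C20 and C30 array, and the log2 fold changes were -2.70 ± 0.41 at C20 (adjusted p = 0.00178) and -2.43 ± 0.41 at C30 (adjusted p = 0.00304). PIP2-4 set 2 read 155, 119, 75.2 and 66 at C0, with log2 fold changes of -3.01 ± 0.47 at C20 (adjusted p = 0.00226) and -2.66 ± 0.47 at C30 (adjusted p = 0.00434). PIP2-8 set 2 read 3112, 2938, 2245 and 1571 at C0, and it fell by 1.76 ± 0.38 at C20 (adjusted p = 0.0124) and 1.71 ± 0.38 at C30 (adjusted p = 0.0158). PIP2-8 set 1, with C0 signals of 6788, 6374, 5270.0 and 4449.8, fell by 1.60 at C20 and by 1.54 at C30. PIP2-6 set 1 read 2838, 3347, 1948 and 1648 at C0 and was called at C30 (log2 fold change -2.53 ± 0.49, adjusted p = 0.00765). PIP2-6 set 2 read 6111, 7261, 4275 and 2112 and PIP2-6 set 3 64.6, 76, 62.3 and 51.8; their log2 fold changes were -1.90 and -1.54 at C20 and -1.83 and -1.65 at C30, all called. The C20 and C30 calls of these last 2 probe sets and of PIP2-8 set 1 ended under quantile normalization.

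PIP1-8, with C0 signals of 453, 463, 106 and 126, fell at both ages, by 1.95 ± 0.54 at C20 (adjusted p = 0.0378) and 2.06 ± 0.54 at C30 (adjusted p = 0.0347). PIP1-1 and PIP1-7 were called at C20 alone. PIP1-1 read 1587, 1132, 657 and 365 at C0 and fell by 1.82 ± 0.50 (adjusted p = 0.0390), and at C30 it missed the threshold (adjusted p = 0.0568). PIP1-7 set 2 read 12046, 11124, 8269 and 8752 at C0 and fell by 0.75 ± 0.21 (adjusted p = 0.0399), a direction that turned under quantile normalization, to 0.04. SIP1-6 set 2 had a log2 fold change of -4.69 ± 1.20 at C20 (adjusted p = 0.0277), from C0 signals of 742, 428, 56.1 and 82.3. Whether the C20 and C30 changes differ was not tested.

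The C0 arrays themselves split for many of these genes. PIP1-6 read 2723, 1306, 16.7 and 30.3 on C0 replicates 1 to 4, PIP2-9 read 3149, 1449, 216 and 181, and PIP2-13 set 1 read 4131, 2841, 379 and 167. SIP1-6 set 3 read 1086, 599, 87.1 and 64.3, and SIP1-6 set 1 read 697, 400.4, 42.9 and 31.7. PIP1-10 set 2 read 5393, 5242, 2955 and 2396. Replicates 1 and 2 were the high arrays in each case, and PIP1-6, PIP1-10, PIP2-9 and PIP2-13 were not called against C0 at any age. The actin ratio was 5.25 and 4.74 on those replicates and 3.77 and 8.27 on the other C0 arrays, ranges that overlap. The summed leaf markers were 17268 to 27645 in C0. By contrast, the C0 signals of SIP1-3 (396, 477, 538 and 257) and PIP2-2 (329, 449, 574 and 545) showed no such split. For NIP1-8 (240.3, 234, 192 and 128) replicates 1 and 2 were also the highest, with a smaller gap.

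Tonoplast aquaporins carried other symbols. RefSeq's gene table gives aquaporin names as synonyms for 4 further genes with 13 probe sets, found after the tables had been looked at, and they count in none of the numbers above. SPCP1, which has the synonyms GmTIP1;3 and GmTIP1;7, had 2 probe sets that rose over the ages. SPCP1 set 6 read 2782, 2440.3 and 3010.3 in D15 and 2101, 661 and 575 in C15, 2465, 1981 and 1705 in R20 and 489.5, 495 and 1068 in C20. In R30 it read 3111, 2117 and 1687 and in C30 857, 479.7 and 183. Every bud-removed array was above every same-age control, and the average rise was 1.87 ± 0.41 (adjusted p = 0.00348). SPCP1 set 2 read 4419, 4100.0 and 2311 in D15 against 3789.7, 782 and 630.0 in C15, 3340.3, 2647 and 869 in R20 against 585, 593 and 1382 in C20 and 4024, 2435 and 1691 in R30 against 875, 392 and 138 in C30. It rose by 1.88 ± 0.53 (adjusted p = 0.0166), and R30 and C30 alone did not overlap.

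**Figure D5:**
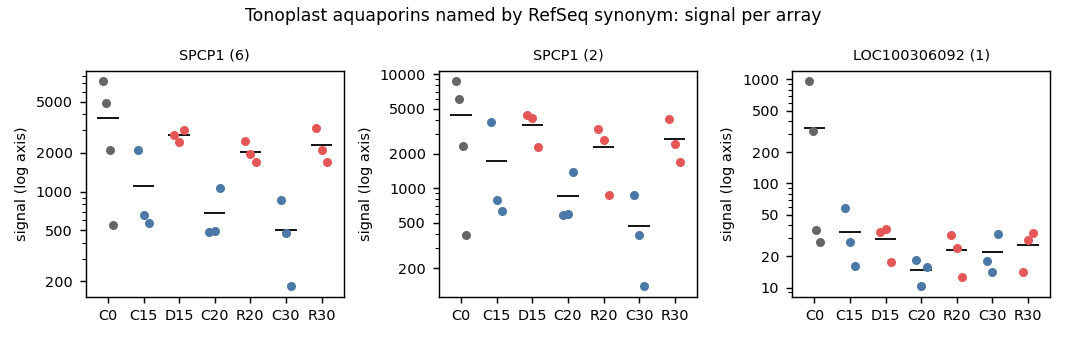
Signal on each array (points, log axis; the line is the mean of the linear signals) for 2 SPCP1 probe sets and 1 of LOC100306092, genes that RefSeq lists with TIP synonyms, in the 7 groups. For the SPCP1 probe set in the left panel all bud-removed points lie above the same-age control points, and for LOC100306092 C0 replicates 1 and 2 (968 and 319.7) stand above all other arrays.

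SPCP1 set 1 and SPCP1 set 5 averaged 0.23 and 0.27 over the ages and were not called, and whether they differ from sets 2 and 6 was not tested. With age, SPCP1 set 1 fell by 1.58 ± 0.41, SPCP1 set 5 by 2.41 ± 0.47 and SPCP1 set 6 by 2.59 ± 0.67 in C30 against C0 (adjusted p = 0.0332, 0.00765 and 0.0330). Of 17 alternatives, the call ended under 7 for set 1, median centring among them, under 1 for set 5 and under 5 for set 6, and for sets 1 and 6 also without C0 replicate 1 or 2. LOC100306092 set 1, of a gene with the synonym TIP2-3, read 968, 319.7, 36.1 and 27.4 at C0 and 18.4, 10.2 and 15.8 at C20, and fell by 3.13 ± 0.87 (adjusted p = 0.0399). That call ended under 6 of 17 alternatives: without C0 replicate 1 or 2, without any 1 of the C20 arrays and in the 2-group fit. LOC547794 (TIP1-6) and N-26, the nodule gene whose synonym is GmNIP1;5, were not called in any comparison, and N-26 lay above the floor on 8 arrays.

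Genes with related roles were taken by symbol, with 1 probe set per gene. Of 22 tested water deficit, abscisic acid and osmolyte genes, 1 rose and 2 fell over the ages, with a median of -0.21. Over all tested probe sets, 11.1% were called higher and 11.3% lower, with a median of -0.13. The call counts of this list and of the transporters below lie near or under those shares. SPK-1, a protein kinase gene, rose by 2.48 ± 0.31 (adjusted p = 2.5e-05), and the transcription factor genes DREB3 and DREB1 fell by 1.18 ± 0.18 and 0.74 ± 0.16 (adjusted p = 0.000172 and 0.00333). Of 18 other membrane transporter genes, ZIP43, of a metal transporter family, rose by 1.42 ± 0.46, while PHT1-8 (phosphate transporter family) and SWEET13 (sugar transporter family) fell by 1.82 ± 0.43 and 1.57 ± 0.50 (adjusted p = 0.0333, 0.00565 and 0.0284). The median of those 18 genes was 0.18. Of the 4 genes of 14-3-3 proteins, which bind membrane pumps and channels in plants, limma called 0 in any comparison, and the smallest p over the ages was that of SGF14M (unadjusted p = 0.0208, adjusted p = 0.0754).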

How the data were processed

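Total RNA of 22 mature leaf samples was labelled with biotin and hybridised by the one-cycle Affymetrix protocol, per the labels. For each of 61170 probe sets the deposited values give its intensity, not log transformed, on every array. Each array had a 2% trimmed mean of 125.009 to 125.015, so the authors' intensity values had been scaled to a common mean, by software not given in the sources used here. Genes were named from the platform's annotation table, and the gene identifiers of all 19 member genes were in RefSeq's table with the same symbol. Coordinates are not given, as no build belongs to the array in those sources.

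Models were fitted with limma 3.58.1 (R 4.3.3) to log2(signal + 1), with 1 coefficient per group over all 22 arrays, eBayes with a variance trend and Benjamini-Hochberg adjustment over 32776 probe sets. Tests are two-sided, and errors of fold changes are standard errors. The size of folds of dim probe sets is uncertain, as it depends on the pseudocount and on signals under the floor. The fit was tested on simulated data. The members and gene lists were chosen with earlier results of these data known. Values in every array are given for members called in any comparison and for NIP1-8, the NIP with the smallest p over the ages. Alternatives were quantile normalization, median centring, a pseudocount of 16, no floor filter, no variance trend, a replicate block, 2-group fits and leaving out arrays. Deviations from the group mean of each probe set were correlated between same-numbered samples of an age. These correlations were -0.16 to 0.27, above 0.1 in 4 of 9 pairs, so the numbers were not taken to pair the samples. The submitters describe 3 replicate time courses but no label ties a number to a course, so the p-values treat samples as independent of any shared course. The log2(signal + 1) values themselves, over all tested probe sets, correlated between 2 arrays at 0.704 to 0.961.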

Additional observations from a re-analysis of the deposited data

Results flagged for a closer look

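In C0, PIP1-4 read 145 on replicate 1 and 29.4 to 41.7 on the other 3 arrays, a gap that Dixon's criterion marks at the 95% level. It was the only mark among the 45 probe sets tested so in C0, members and synonym-named genes together, and chance marks about 1 group in 20.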

How the results depend on the processing

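Over the 3 ages the calls of both PIP2-4 probe sets, PIP2-6 set 3, PIP2-8 set 2, PIP2-9, SIP1-6 sets 2 and 3 and SPCP1 sets 2 and 6 held in all 26 alternatives run; the count was 13, and 7 to 15 without 1 array. At R20 the count of 8 became 15 under median centring, 5 with no variance trend and 2 in a fit of the 2 groups alone, and 0 to 11 without 1 array. At R30 the count of 0 became 1 with the actin ratio as a covariate, 1 in the 2-group fit and 3 without C0 replicate 4, C15 replicate 1 and R20 replicate 3, and 0 to 2 without 1 array. At D15 those 3 arrays left out gave 2 in place of 0, and leaving out 1 array gave 0 each time. In C15 against C0 the count of 0 became 1 with the replicate block, 6 without the 3 arrays and 0 to 1 without 1 array. In C20 against C0 the count of 10 became 6 under quantile normalization, 21 without the 3 arrays and 2 to 14 without 1 array. In C30 against C0 the count of 8 became 5 under quantile normalization, 18 with the replicate block, 19 without the 3 arrays, 0 in the 2-group fit and 3 to 18 without 1 array. The 2-group fits estimate the spread from fewer arrays; C0 replicate 4 is alone in its block and so carries no weight there, and leaving that array out without a block gave the same counts as the block in C15 and C30 against C0 (1 and 18); the cause of the other changes was not tested. The fall of PIP1-7 set 2 in C20 against C0 turned to 0.0398 under quantile normalization, and no other call of a member or a synonym-named gene changed direction. Both interactions kept 0 calls in the alternatives run. Shares of all probe sets called under the alternatives are not given here, so the member counts there have no rate over the whole array beside them. Leaving out the 3 arrays and the actin covariate were added after the data were seen.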
